A study of Mus musculus with 8 samples.

Results

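The enzymes described here convert glucose to pyruvate and pyruvate to lactate, and 10 of their genes were followed: Hk2, Pfkl, Pfkp, Aldoa, Tpi1, Pgk1, Pgam1, Eno1, Pkm and Ldha. They were chosen by name as members of the pathway, and all 10 were found among the 18020 rows of the table through their gene numbers. The study sequenced RNA of bone marrow from mice with leukaemia after transplant of B cells that carry BCR-ABL1, the fusion kinase of Philadelphia-chromosome-positive acute lymphoblastic leukaemia (B-ALL). KO_LPS (n = 3) stands for Aid KO cells with LPS, WT_LPS (n = 3) for Aid WT cells with LPS, and WT_PBS (n = 2) for Aid WT cells with PBS. LPS (lipopolysaccharide), from the outer membrane of Gram-negative bacteria, is a ligand of Toll-like receptor signalling, and PBS (phosphate-buffered saline) is its vehicle. All groups share BCR-ABL1 in the transplanted cells, and the marrow also holds cells of the host. In the labels the treatment belongs to the cells, with no dose, time or route, and the age and strain of the mice and the number of separately transformed cultures are not stated. No Aid KO library with PBS was analysed here, so the response of such cells to LPS could not be tested, and a p-value here reflects no more than the variation among these libraries, part of which may be technical.

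Glycolysis opens with the trapping of glucose as glucose-6-phosphate by hexokinase and passes its main point of control at phosphofructokinase. Aldolase then splits the sugar, and the later steps, from triosephosphate isomerase to pyruvate kinase, recover ATP, after which lactate dehydrogenase regenerates the NAD+ that lets the pathway run on. Many of these genes are known targets of the hypoxia-inducible factors (HIF) and of Myc. Dividing B-lineage cells, neutrophils and red cell precursors all use the pathway, so marrow levels pool several cell types.

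The promoter windows of 4 enzymes are shown because they hold the core motif through which HIF binds and because Hk2 and Pfkl varied most among the enzymes while Pgk1 and Ldha were among the steadiest. Each is 300 bases long, 250 before the transcription start and 50 after it, from RefSeq on GRCm38.p6. Capitals mark matches to ACGTG or GCGTG on either strand. The Hk2 window, at chr6:82774405-82774704 on the minus strand at the start of a gene that spans chr6:82725025-82774454, holds 2 matches. The Pfkl window, at chr10:78009758-78010057 on the minus strand of a gene that spans chr10:77986947-78009807, holds 1 match. The Pgk1 window, at chrX:106186850-106187149 on the plus strand of a gene that spans chrX:106187100-106203699, holds 2 matches. For Ldha RefSeq lists several starts, and the window shown was picked as the one with the most matches. It lies at chr7:46845554-46845853 on the plus strand of a gene that spans chr7:46842274-46855627, and holds 7 matches counted on both strands. In it the E-box CACGTG, which Myc binds, occurs at 2 places, and each of them also reads as the HIF core on both strands. The other Ldha window, at chr7:46846832-46847131, holds 2 matches and 0 E-boxes.
Hk2: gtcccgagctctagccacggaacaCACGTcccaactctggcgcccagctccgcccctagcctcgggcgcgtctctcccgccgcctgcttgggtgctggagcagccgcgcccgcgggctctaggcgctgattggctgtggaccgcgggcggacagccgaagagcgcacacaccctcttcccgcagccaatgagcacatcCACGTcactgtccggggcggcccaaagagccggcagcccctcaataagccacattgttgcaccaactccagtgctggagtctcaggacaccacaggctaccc
Pfkl: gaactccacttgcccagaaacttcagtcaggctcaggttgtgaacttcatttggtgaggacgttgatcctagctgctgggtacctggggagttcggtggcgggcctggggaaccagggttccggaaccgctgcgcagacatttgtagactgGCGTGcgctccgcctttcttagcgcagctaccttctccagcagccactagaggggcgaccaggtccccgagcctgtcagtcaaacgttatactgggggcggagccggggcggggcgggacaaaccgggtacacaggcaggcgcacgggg
Pgk1: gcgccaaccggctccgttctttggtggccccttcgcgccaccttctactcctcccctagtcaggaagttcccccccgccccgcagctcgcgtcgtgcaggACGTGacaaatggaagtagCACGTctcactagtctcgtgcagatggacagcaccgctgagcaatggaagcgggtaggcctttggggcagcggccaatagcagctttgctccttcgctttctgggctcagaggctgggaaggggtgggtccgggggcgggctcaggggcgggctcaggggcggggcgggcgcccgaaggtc
Ldha: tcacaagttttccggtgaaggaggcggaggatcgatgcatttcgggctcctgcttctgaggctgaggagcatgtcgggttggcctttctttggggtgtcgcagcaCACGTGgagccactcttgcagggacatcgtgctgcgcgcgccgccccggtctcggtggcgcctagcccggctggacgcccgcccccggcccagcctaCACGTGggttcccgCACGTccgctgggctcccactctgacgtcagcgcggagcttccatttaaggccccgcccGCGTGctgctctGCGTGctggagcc

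These motifs are short and common. The HIF core was present in 13 of the 16 windows listed for the 10 genes and in at least 1 window of 9 genes, Tpi1 being the exception, against 43.8% of all 32851 windows of the same length. The E-box was present in 1 of the 16 windows, against 7.15% of all windows. The GC box GGGCGG was present in 12 of the 16 windows and in some window of all 10 genes, against 35.7% of all windows. Genes with several windows count more than once, and a match is a run of letters and not a measured binding site.

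Values are FPKM, that is, sequenced fragments divided by transcript length and by the mapped total, and they summed per library to 606576 to 700238. Depth in reads is unknown. Correlations across genes were 0.95 to 0.988 between libraries of a group and 0.934 to 0.991 between groups, so the libraries did not fall apart by label. Over all genes tested, 60.5% of the variance lay along the first principal component, with scores of 34.5, 50.02 and -21.1 in KO_LPS 1 to 3, 17.4, -30.1 and -14.2 in WT_LPS 1 to 3, and -1.30 and -35.1 in WT_PBS 1 and 2. KO_LPS 1, KO_LPS 2 and WT_LPS 1 therefore stood together at its high end. B-lineage transcripts were abundant: Vpreb1, part of the surrogate light chain of the pre-B cell receptor, read 1996 to 2946 FPKM and Cd79a 844 to 1086 FPKM, while Ms4a1, a marker of mature B cells, was at 0 to 0.31 FPKM and listed at 0 in KO_LPS 1 and KO_LPS 2.

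Neutrophil transcripts were abundant as well. The sum over 14 neutrophil markers, none of which was at 0, ranged over 5599 to 14305 FPKM in KO_LPS, 8692 to 28266 FPKM in WT_LPS and 12211 to 15596 FPKM in WT_PBS. The highest sum was that of WT_LPS 1, where 11 of the 14 markers peaked. How many of all genes peaked there was not counted. The KO_LPS minus WT_LPS difference was below 0 for 14 of 14 markers, where 42% of all genes were above 0. Of these markers 0 passed, against 0.0829% of all genes. The sum over 10 erythroid markers, none of which was at 0, ranged over 229 to 1298 FPKM in KO_LPS, 250.3 to 449 FPKM in WT_LPS and 294 to 432 FPKM in WT_PBS, and was highest in KO_LPS 1 and KO_LPS 2. The labels give the cell type as B lymphocyte, and these values show RNA of other marrow cells beside it. In such bulk samples fewer cells of a type and less RNA per cell cannot be told apart, and the part of other cells in the enzyme values was not tested.

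The 10 genes covered a wide range of levels. Averaged over the 8 libraries, Eno1 stood at 718 FPKM, Ldha at 659, Pkm at 652, Pgk1 at 264, Aldoa at 255, Pgam1 at 177, Tpi1 at 136, Pfkl at 18.8, Pfkp at 14.3 and Hk2 at 4.89 FPKM. Eno1, Ldha and Pkm ranked 132, 144 and 146 among 12061 genes tested, and Hk2 ranked 8435. FPKM is per length, so these levels are set beside each other, though how well they compare between genes was not tested. Of the 9 pairs of neighbours in this order, 5 kept it in every library: Pkm over Pgk1, Aldoa over Pgam1, Pgam1 over Tpi1, Tpi1 over Pfkl, and Pfkp over Hk2. Eno1 and Ldha, Ldha and Pkm, Pgk1 and Aldoa, and Pfkl and Pfkp changed places in at least 1 library, and Aldoa exceeded Pgk1 in WT_LPS 1, WT_LPS 2 and WT_PBS 2. Hk2, Pfkl and Pfkp lay below the 7 other genes in every library.

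**Figure D1:**
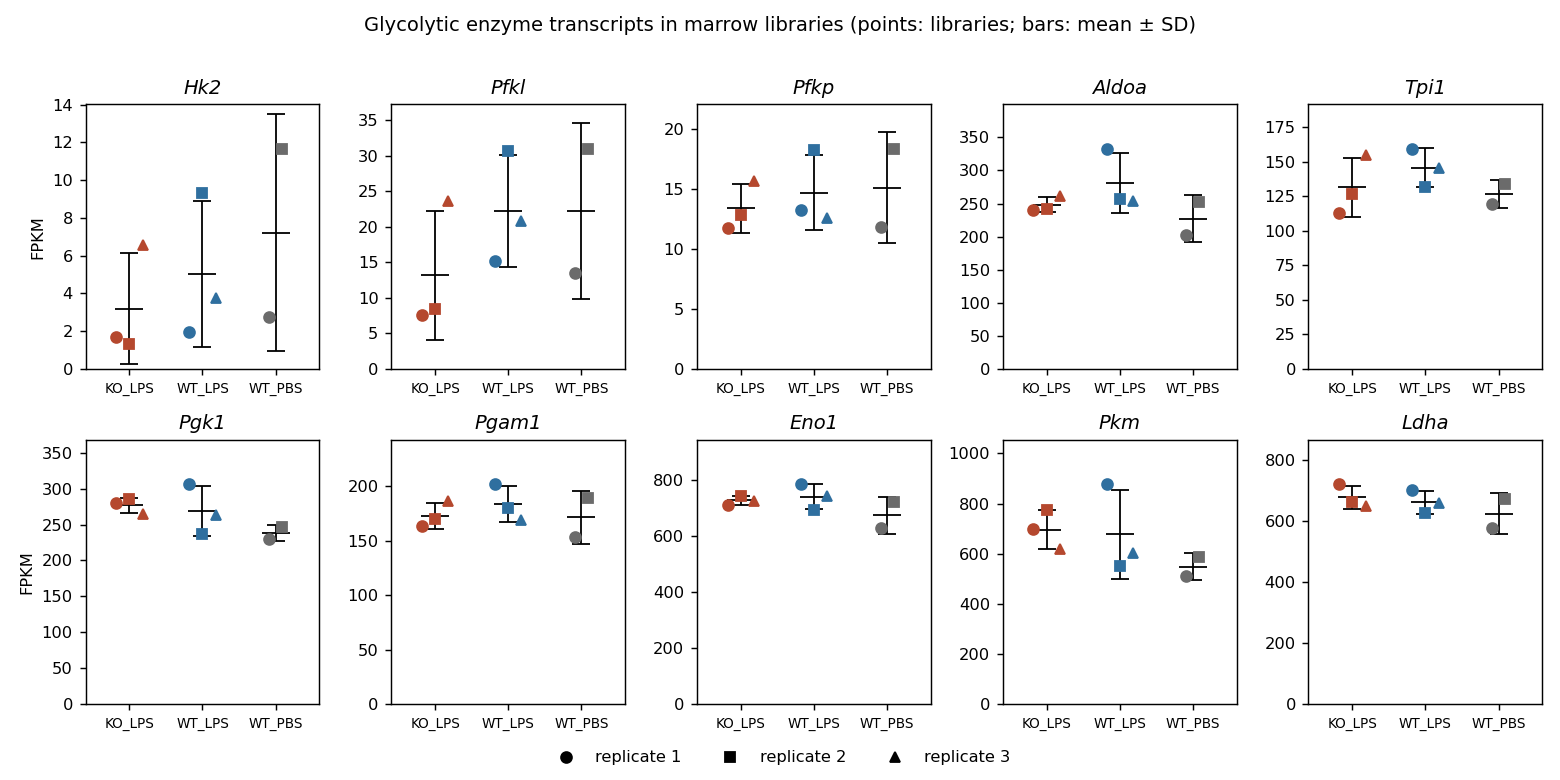
FPKM (y axis, from 0, on a separate scale for each gene) of the 10 enzymes in KO_LPS (n = 3), WT_LPS (n = 3) and WT_PBS (n = 2), with points for libraries, their shape for the replicate, and bars for the mean ± SD. Hk2 ranges over 1.34 to 11.67 FPKM and Pfkl over 7.54 to 31.01 FPKM with all groups overlapping, whereas Eno1 stays between 627 and 785 FPKM.

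Hk2, the inducible hexokinase that binds mitochondria, was the most variable enzyme. It had 1.68, 1.34 and 6.58 FPKM in KO_LPS, 1.97, 9.34 and 3.76 FPKM in WT_LPS, and 2.78 and 11.67 FPKM in WT_PBS. Each group held a library with a low and a library with a high value, and the 3 groups overlapped. Its highest value was 8.71 times its lowest, where the median gene had a ratio of 1.87.

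Pfkl, the liver-type subunit of phosphofructokinase, had 7.54, 8.38 and 23.64 FPKM in KO_LPS, 15.17, 30.69 and 20.86 FPKM in WT_LPS, and 13.44 and 31.01 FPKM in WT_PBS. KO_LPS 1 and KO_LPS 2 lay below every other library, and KO_LPS 3 lay inside the range of both other groups. Pfkp, the platelet-type subunit, was steadier, with 11.69, 12.81 and 15.62 FPKM in KO_LPS, 13.23, 18.24 and 12.54 FPKM in WT_LPS, and 11.80 and 18.34 FPKM in WT_PBS. WT_LPS 2 and WT_PBS 2 were its highest libraries, and the groups overlapped.

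Aldoa encodes the aldolase that splits fructose-1,6-bisphosphate into triose phosphates. It had 241, 243 and 262 FPKM in KO_LPS, 333, 257 and 253 FPKM in WT_LPS, and 202 and 252 FPKM in WT_PBS. WT_LPS lay wholly above WT_PBS, but its lowest library, at 253.25 FPKM, lay close to the higher WT_PBS library, at 252.21 FPKM. Tpi1, triosephosphate isomerase, had 113, 127 and 155 FPKM in KO_LPS, 159.5, 132 and 146 FPKM in WT_LPS, and 119 and 134 FPKM in WT_PBS. KO_LPS 1 was its lowest and WT_LPS 1 its highest library, and the groups overlapped.

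Pgk1, phosphoglycerate kinase, makes the first ATP of the pathway. It had 280.3, 285 and 265 FPKM in KO_LPS, 306, 237 and 263 FPKM in WT_LPS, and 229.8 and 246 FPKM in WT_PBS. All KO_LPS libraries lay above both WT_PBS libraries, while WT_LPS overlapped both groups. Pgam1, phosphoglycerate mutase, which moves the phosphate within phosphoglycerate, had 163, 169 and 186 FPKM in KO_LPS, 202, 179.8 and 169 FPKM in WT_LPS, and 154 and 189 FPKM in WT_PBS, and its groups overlapped. Eno1, enolase, had 711, 742 and 726 FPKM in KO_LPS, 785, 693 and 742 FPKM in WT_LPS, and 627 and 719 FPKM in WT_PBS. WT_PBS 1 was its lowest library, and WT_PBS 2 lay inside the ranges of the other groups.

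Pkm, pyruvate kinase, makes pyruvate and the last ATP. It had 698, 774 and 617 FPKM in KO_LPS, 878, 550.2 and 602 FPKM in WT_LPS, and 512 and 587 FPKM in WT_PBS. KO_LPS lay above WT_PBS in all libraries, and WT_LPS ran from inside the WT_PBS range to the highest value of all. The table has a single value per gene, so the M1 and M2 forms of Pkm were not told apart. Ldha, the lactate dehydrogenase subunit that favours the reduction of pyruvate, had 722, 662 and 649 FPKM in KO_LPS, 700.3, 626 and 660.3 FPKM in WT_LPS, and 577 and 672 FPKM in WT_PBS. Only WT_PBS 1 stood outside the range of the KO_LPS and WT_LPS libraries.

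Hk2 and Pfkl varied far more between libraries than the other enzymes. Between libraries of a group, the standard deviation of log2(FPKM + 1) was 0.989 for Hk2 and 0.716 for Pfkl, and 0.771% and 3.74% of all genes tested had a larger one. It was 0.0866 for Eno1 and 0.1003 for Ldha, and 96.7% and 94.4% of genes had a larger one. For Pgk1 it was 0.127, for Pgam1 0.139, for Aldoa and Tpi1 0.177 and 0.178, for Pkm 0.256 and for Pfkp 0.285, against a median over all genes of 0.250 and quartiles of 0.170 and 0.373. Apart from Hk2 and Pfkl, the highest value of an enzyme was 1.25 to 1.72 times its lowest.

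**Figure D2:**
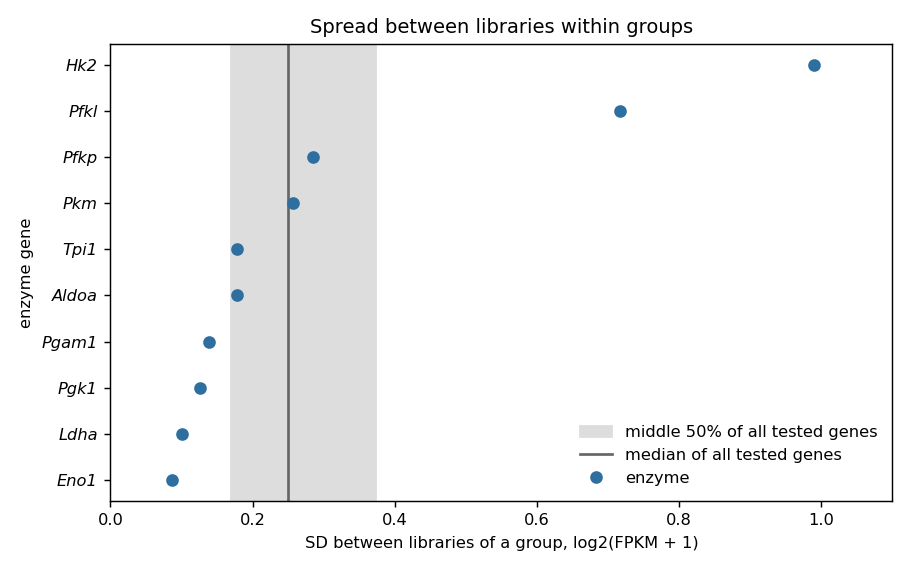
Standard deviation of log2(FPKM + 1) between libraries of a group (x axis, pooled over the 3 groups) for each enzyme (y axis), with the middle 50% of all 12061 genes tested in grey and their median of 0.250 as a line. Hk2 at 0.989 and Pfkl at 0.716 lie to the right of the grey band, and Eno1, Ldha, Pgk1 and Pgam1 lie to its left.

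The order of the libraries differed as well between these genes and the later enzymes. For Hk2 the order from high to low was the exact order of the first principal component from low to high, with WT_PBS 2 first, then WT_LPS 2, KO_LPS 3, WT_LPS 3, WT_PBS 1, WT_LPS 1, KO_LPS 1 and KO_LPS 2. Pfkl followed the same order except that WT_LPS 1 and WT_PBS 1 changed places, as did KO_LPS 1 and KO_LPS 2. The component was computed over all genes, these 10 included. Aldoa, Tpi1, Pgk1, Pgam1, Eno1 and Pkm were instead highest in WT_LPS 1, and Aldoa, Pgk1, Pgam1, Eno1, Pkm and Ldha were lowest in WT_PBS 1. The FPKM of all 10 enzymes summed to 2948, 3024 and 2906 in KO_LPS, 3395, 2733 and 2873 in WT_LPS, and 2449 and 2859.7 in WT_PBS, which was 0.388% to 0.493% of a library's total.

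Transcript length is given beside these patterns because the opening enzymes have long transcripts. The longest annotated transcripts of Hk2, Pfkl and Pfkp measure 5513, 3730 and 8681 bases, and those of the 7 other enzymes 1549 to 2432 bases. In each library the median deviation of transcripts of 4000 bases or more, minus that of transcripts under 2000 bases, was -0.18, -0.03 and 0.03 on the log2 scale in KO_LPS 1 to 3, -0.15, 0.10 and -0.00072 in WT_LPS 1 to 3, and 0.12 and 0.09 in WT_PBS 1 and 2. Long transcripts were thus relatively low in KO_LPS 1 and WT_LPS 1, and relatively highest in WT_PBS 1. The mean deviation of Hk2, Pfkl and Pfkp was -0.73, -0.71 and 0.41 in KO_LPS 1 to 3. It was -0.32, 0.75 and 0.03 in WT_LPS 1 to 3, and -0.31 and 0.86 in WT_PBS 1 and 2. The part of transcript length in the values of Hk2 and Pfkl was not tested. With trends with length and GC content removed from each library, the KO_LPS minus WT_LPS difference was -0.47 for Hk2 and -0.72 for Pfkl on the log2 scale, beside -0.54 and -0.83 as fitted.

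**Figure D3:**
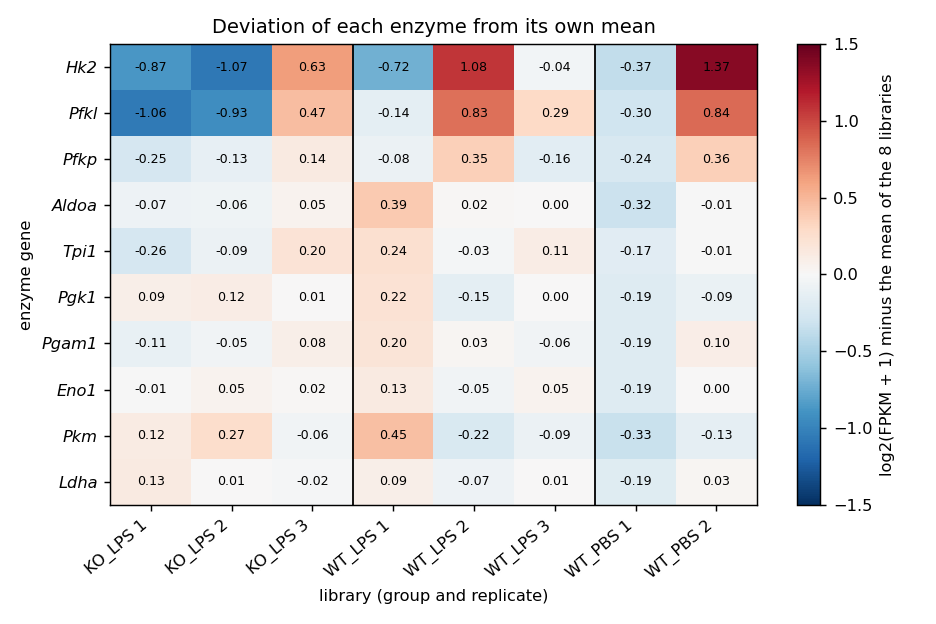
Deviation of log2(FPKM + 1) of each enzyme (rows) in each library (columns, KO_LPS, WT_LPS and WT_PBS from left to right) from the mean of the 8 libraries, written in each cell and coloured red above and blue below it. Hk2 runs from -1.07 in KO_LPS 2 to 1.37 in WT_PBS 2, while Eno1 runs from -0.19 in WT_PBS 1 to 0.13 in WT_LPS 1.

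Isozymes of the same step showed how much of each step the followed genes carry. Among hexokinase genes, Hk1, the widely expressed form, held 43.2% to 79.7% of the summed FPKM, Hk3, a form known from myeloid cells, 12.4% to 38.1%, and Hk2 5.21% to 27.0%. The Hk2 share was lowest in WT_LPS 1 and highest in WT_PBS 2. The Hk3 share was lowest in KO_LPS 2 and highest in WT_LPS 1, the library with the highest neutrophil sum, and whether the neutrophil content accounts for it was not tested. Hkdc1 was at 0 to 0.05 FPKM. These 4 genes summed to 16.4, 16.9 and 37.9 FPKM in KO_LPS, 37.8, 36.5 and 29.3 FPKM in WT_LPS, and 22.2 and 43.2 FPKM in WT_PBS.

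Phosphofructokinase was shared among 3 genes. Pfkl held 25.9% to 51.9%, Pfkp 27.4% to 44.9% and Pfkm, the muscle-type subunit, 17.3% to 33.8% of the summed FPKM. Pfkp was the leading subunit in KO_LPS 1 and KO_LPS 2, and Pfkl in the other 6 libraries. The step summed to 29.1, 28.5 and 51.9 FPKM in KO_LPS, 38.8, 59.1 and 45.7 FPKM in WT_LPS, and 37.1 and 60.8 FPKM in WT_PBS. The later steps rested on a single gene each: Aldoa held at least 99.2%, Pgam1 at least 97.9%, Eno1 at least 99.8%, Pkm at least 99.96% and Ldha at least 99.4% of their steps. Ldhb, the subunit of lactate dehydrogenase that prevails in heart, reached 4.49 FPKM at most. Gapdh and Gpi1, which catalyse steps that none of the 10 genes covers, stood at 1471 to 2290.2 and 317 to 468 FPKM.

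**Figure D4:**
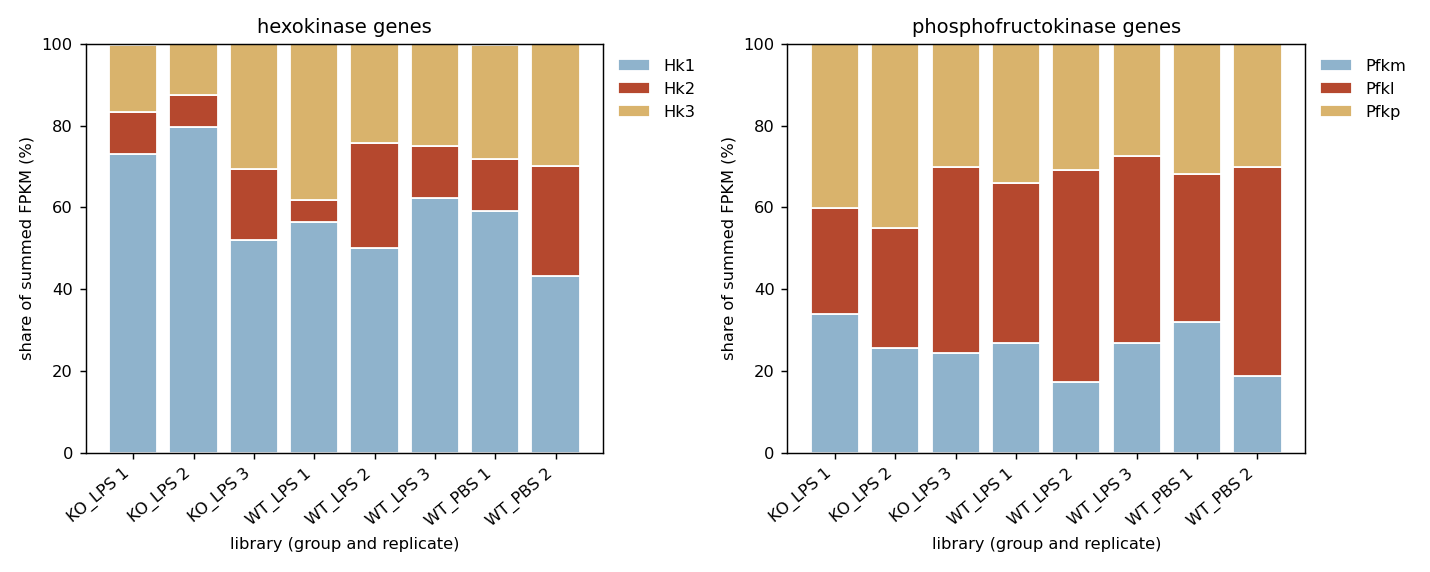
Share of the summed FPKM of a step (y axis, percent) held by the hexokinase genes Hk1, Hk2 and Hk3 (left) and the phosphofructokinase genes Pfkm, Pfkl and Pfkp (right) in each library (x axis, KO_LPS to WT_PBS). The Hk2 share spans 5.21% to 27.0% and the Pfkl share 25.9% to 51.9%, with libraries of 1 group far apart.

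The first comparison asked how marrow with LPS differed from marrow with vehicle when the cells had intact Aid. None of the 10 enzymes passed, and Aldoa came closest, with 281 ± 45.0 FPKM in WT_LPS and 227 ± 35.4 FPKM in WT_PBS (SD, n = 3 and 2). Its difference in log2(FPKM + 1) was 0.30 ± 0.16 (SE), with a 95% interval of -0.05 to 0.66, an unadjusted p of 0.0846 and an adjusted p of 0.9998 (limma, Benjamini-Hochberg over 12061 genes). Pkm averaged 677 ± 176 FPKM in WT_LPS and 549 ± 53.1 FPKM in WT_PBS, a difference of 0.27 with an interval of -0.19 to 0.74. Hk2 averaged 5.02 ± 3.84 FPKM in WT_LPS and 7.22 ± 6.29 FPKM in WT_PBS, a difference of -0.39 with an interval of -2.01 to 1.23, so a change of 2-fold in either direction lay within its interval. Ldha differed by 0.09, with an interval of -0.19 to 0.36.

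Of all genes 0 of 12061, or 0%, passed in this comparison, and 142, or 1.18%, had an unadjusted p under 0.05, none of them among the 10 enzymes. The groups did not overlap for 1 of the 10 enzymes, Aldoa, higher in WT_LPS, against 5.36% of all genes, and for none in the lower direction, against 10.3%. The difference was above 0 for 8 of 10 enzymes, all but Hk2 and Pfkp, where 38.5% of all genes were above 0, and the median over the enzymes was 0.12 against -0.06 over all genes. With 1 library left out, the median ranged over 0.01, without WT_PBS 1, the lowest library for 6 enzymes, to 0.28, without WT_PBS 2, and it was 0.07 without WT_LPS 1.

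The second comparison set marrow with Aid KO cells against marrow with Aid WT cells, both with LPS. None of the 10 enzymes passed, and the lowest p belonged to Pfkl, with 13.2 ± 9.06 FPKM in KO_LPS and 22.2 ± 7.85 FPKM in WT_LPS (SD, n = 3 each). Its difference was -0.83 ± 0.46 (SE), with an interval of -1.89 to 0.22, an unadjusted p of 0.106 and an adjusted p of 0.765 (limma). Hk2 averaged 3.20 ± 2.93 FPKM in KO_LPS and 5.02 ± 3.84 FPKM in WT_LPS, a difference of -0.54 with an interval of -1.99 to 0.91. The steadier enzymes were bounded more closely: Eno1 differed by -0.03, with an interval of -0.26 to 0.21, Ldha by 0.03, with an interval of -0.21 to 0.28, and Pgk1 by 0.05, with an interval of -0.21 to 0.31. For these 3 genes a difference of 2-fold in either direction lay outside the interval.

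None of the 10 enzymes was therefore among the 10 genes that passed between KO_LPS and WT_LPS, which were 0.0829% of all genes (0.058% higher and 0.0249% lower), and 686, or 5.69%, had an unadjusted p under 0.05, none of them among the 10 enzymes. The groups overlapped for all 10 enzymes, while 4.82% of all genes were higher and 4.32% lower without overlap. The difference was above 0 for 3 of 10 enzymes, Pgk1, Pkm and Ldha, where 42% of all genes were above 0, and the median was -0.10 against -0.06 over all genes. With 1 library left out, this median ranged over -0.17, without KO_LPS 3, to -0.03, without WT_LPS 1, and it was -0.04 without KO_LPS 1. Its sign turned, to 0.06, without the 3 libraries highest on the first component. The negative values of Hk2 and Pfkl shrank without some single libraries of either group. For Hk2 the difference was -0.32 without KO_LPS 1, -0.225 without KO_LPS 2 and -0.05 without WT_LPS 2. For Pfkl it was -0.56, -0.63 and -0.58 in the same order. For Hk2 and Pfkl in turn it was -0.95 and -1.07 without WT_LPS 1, and -0.61 and -0.85 without WT_LPS 3. Without KO_LPS 1, KO_LPS 2 and WT_LPS 1, the libraries at the high end of the first component, the difference was 0.11 for Hk2 and -0.10 for Pfkl. That fit keeps only KO_LPS 3 in KO_LPS and drops the 3 libraries lowest in Hk2. It therefore cannot decide whether Hk2 differs between the groups. Without KO_LPS 3 the difference was -1.07 for Hk2 and -1.32 for Pfkl, with adjusted p of 0.279 and 0.0996 (limma). With libraries weighted by their fit, Pfkl passed at -1.18 ± 0.29 (SE), with an adjusted p of 0.0275 under weights estimated gene by gene (limma). In that fit 2727 of all 12061 genes passed. Under limma's default weights, whose estimation stopped before convergence, 6 of the 10 enzymes passed, and so did 8866 of all 12061 genes.

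The third comparison, of Aid KO cells with LPS and Aid WT cells with vehicle, differs in genotype and treatment together, and it shares its libraries with the other comparisons. None of the 10 enzymes passed. Pgk1 averaged 277 ± 10.4 FPKM in KO_LPS and 238 ± 11.5 FPKM in WT_PBS (SD, n = 3 and 2), a difference of 0.22 ± 0.13 (SE) with an interval of -0.08 to 0.51, an unadjusted p of 0.131 and an adjusted p of 0.631 (limma). Pkm averaged 697 ± 78.5 FPKM in KO_LPS and 549 ± 53.1 FPKM in WT_PBS, a difference of 0.34 with an interval of -0.12 to 0.80. Hk2 averaged 3.20 ± 2.93 FPKM in KO_LPS and 7.22 ± 6.29 FPKM in WT_PBS, a difference of -0.93 with an interval of -2.55 to 0.69, and Pfkl differed by -0.78 with an interval of -1.96 to 0.40.

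None of the 10 enzymes was therefore among the 6 genes that passed between KO_LPS and WT_PBS, which were 0.0497% of all genes (0.0332% higher and 0.0166% lower), and 807, or 6.69%, had an unadjusted p under 0.05, none of them among the 10 enzymes. The groups did not overlap for 2 of the 10 enzymes, Pgk1 and Pkm, both higher in KO_LPS, against 8.22% of all genes, and for none in the lower direction, against 13.3%. The difference was above 0 for 7 of 10 enzymes, where 35% of all genes were above 0, and the median was 0.08 against -0.12 over all genes. Median-ratio scaling removes that shift of all genes by design, and under it the enzymes' median was 0.23 beside 0.01 over all genes. Under quantile normalization the enzymes' median was -0.03 beside -0.01 over all genes. With 1 library left out, it ranged over -0.03, without WT_PBS 1, to 0.19, without WT_PBS 2, and it was 0.03 without KO_LPS 3.

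**Figure D5:**
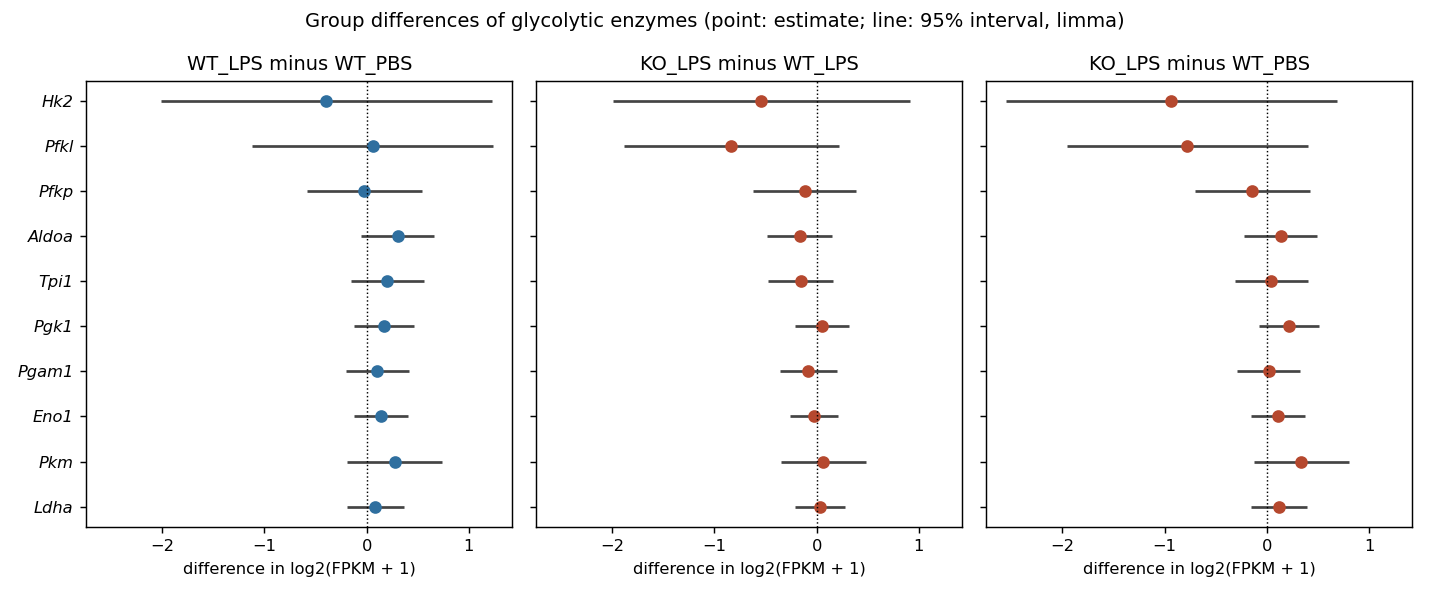
Difference in log2(FPKM + 1) (x axis) of each enzyme (y axis) for WT_LPS minus WT_PBS, KO_LPS minus WT_LPS and KO_LPS minus WT_PBS, with points for the estimate and lines for the 95% interval of the limma fit. Every interval includes 0, and those of Hk2, such as -1.99 to 0.91 for KO_LPS minus WT_LPS, are several times as wide as those of Eno1, -0.26 to 0.21.

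Other genes of the glycolytic steps did not pass either: of the 17 genes found, 10 were tested and 0 passed in either direction in any comparison. At an unadjusted p under 0.05 (limma) the list had 1 gene, Eno3, in KO_LPS minus WT_PBS, where 6.69% of all genes had such a p, and 0 in the other comparisons. Gapdh, which reduces NAD+ in the middle of the pathway, averaged 1979.8 ± 261 FPKM in KO_LPS, 1837 ± 402 FPKM in WT_LPS and 1479.9 ± 12.8 FPKM in WT_PBS (SD, n = 3, 3 and 2). Both WT_PBS libraries, with 1471 and 1489 FPKM, lay below all others, of which WT_LPS 2 was the nearest at 1522 FPKM. Of all genes 5.36% in WT_LPS minus WT_PBS and 8.22% in KO_LPS minus WT_PBS were likewise higher without overlap. The adjusted p of Gapdh was 0.631 for KO_LPS minus WT_PBS and 0.9998 for WT_LPS minus WT_PBS (limma). Hk3 had 2.69, 2.10 and 11.61 FPKM in KO_LPS, 14.42, 8.88 and 7.29 FPKM in WT_LPS, and 6.23 and 12.90 FPKM in WT_PBS. Ldhb averaged 1.68, 2.94 and 2.39 FPKM in KO_LPS, WT_LPS and WT_PBS, and Eno3, the muscle enolase, 0.46, 0.823 and 1.22 FPKM.

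Among 7 tested glucose and lactate transporters 0 passed in either direction, and 1, Bsg in KO_LPS minus WT_PBS, had an unadjusted p under 0.05 (limma), against 6.69% of all genes. Slc2a3, a high-affinity glucose transporter, had 14.11, 8.54 and 23.51 FPKM in KO_LPS, 26.64, 24.30 and 20.65 FPKM in WT_LPS, and 19.20 and 26.94 FPKM in WT_PBS. Its KO_LPS minus WT_LPS difference was -0.70, with an adjusted p of 0.765 (limma). Slc16a3, which exports lactate, averaged 5.68 ± 4.10 FPKM in KO_LPS, 10.2 ± 3.06 FPKM in WT_LPS and 8.38 ± 2.28 FPKM in WT_PBS. As with Hk2 and Pfkl, both were low in KO_LPS 1 and KO_LPS 2 and inside the WT_LPS range in KO_LPS 3. Bsg, the chaperone of lactate transporters, had 149.8, 141 and 149.8 FPKM in KO_LPS, 148, 138 and 138 FPKM in WT_LPS, and 109 and 133 FPKM in WT_PBS. All LPS libraries lay above both WT_PBS libraries, as 5.36% of all genes did without overlap in WT_LPS minus WT_PBS and 8.22% in KO_LPS minus WT_PBS. Its KO_LPS minus WT_PBS difference was 0.28, with an unadjusted p of 0.0462 and an adjusted p of 0.631 (limma). Slc2a6 averaged 2.99, 4.10 and 4.61 FPKM in KO_LPS, WT_LPS and WT_PBS.

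Of 12 tested regulators of flux 0 passed in either direction, and 0 had an unadjusted p under 0.05 (limma). Pfkfb4, which makes the fructose-2,6-bisphosphate that activates phosphofructokinase, averaged 3.25 ± 2.28 FPKM in KO_LPS, 5.09 ± 1.23 FPKM in WT_LPS and 5.63 ± 1.99 FPKM in WT_PBS, and was lowest in KO_LPS 2. Pdk1, a kinase that shuts off pyruvate dehydrogenase, averaged 21.6, 22.8 and 27.5 FPKM in KO_LPS, WT_LPS and WT_PBS, Tigar 4.02, 4.01 and 5.28 FPKM, and Pdp1, the opposing phosphatase, 3.11, 3.21 and 4.15 FPKM. Of 7 pentose phosphate genes 0 passed. Only Pgd, in KO_LPS minus WT_LPS, reached an unadjusted p under 0.05 (limma), against 5.69% of all genes. Pgd, which makes NADPH, had 55.95, 45.18 and 99.28 FPKM in KO_LPS, 115, 106 and 86.4 FPKM in WT_LPS, and 75.1 and 119 FPKM in WT_PBS, and all 7 genes of that list had a KO_LPS minus WT_LPS difference below 0, where 42% of all genes were above 0, with a median of -0.15 against -0.06 over all genes. G6pdx, which opens that pathway, averaged 36.9 ± 15.5 FPKM in KO_LPS and 52.5 ± 15.5 FPKM in WT_LPS, Taldo1 118 ± 15.3 and 151 ± 35.6 FPKM, and Rpe 10.8 ± 3.73 and 11.8 ± 2.29 FPKM. Of 4 tested gluconeogenesis genes 0 passed, also 0 at an unadjusted p under 0.05 (limma): Pck2 averaged 38.3, 56.5 and 43.5 FPKM in KO_LPS, WT_LPS and WT_PBS, Pcx 2.70, 4 and 3.65, G6pc3 24.5, 29.9 and 32.4, and Fbp1 25.8, 28.2 and 22.1 FPKM. The lean of pentose phosphate genes below 0 in KO_LPS minus WT_LPS was not particular to them. Below 0 were also 8 of 10 other genes of the glycolytic steps (median -0.26), 6 of 7 transporters (-0.36) and 4 of 4 gluconeogenesis genes (-0.36). The flux regulators, with 5 of 12 below 0 (median 0.01), and the HIF and Myc regulators, with 6 of 12 (-0.02), did not lean so.

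Of 12 HIF and Myc regulators 0 passed in either direction, and 1, 1 and 2 had an unadjusted p under 0.05 (limma) in WT_LPS minus WT_PBS, KO_LPS minus WT_LPS and KO_LPS minus WT_PBS. Over all genes these shares were 1.18%, 5.69% and 6.69%. Myc, a transcription factor that drives many glycolytic genes, had 47.2, 62.2 and 137 FPKM in KO_LPS, 34.4, 164 and 102 FPKM in WT_LPS, and 104 and 217 FPKM in WT_PBS. WT_PBS 2, WT_LPS 2 and KO_LPS 3 were its 3 highest libraries, as for Hk2, Pfkl and Pfkp, while WT_LPS 1, the highest library for 6 enzymes, was its lowest. Mycn had 5.80, 7.81 and 7.40 FPKM in KO_LPS, 8.81, 13.08 and 14.01 FPKM in WT_LPS, and 19.77 and 16.33 FPKM in WT_PBS, so the 3 groups did not overlap. Of all genes 10.3% in WT_LPS minus WT_PBS, 4.32% in KO_LPS minus WT_LPS and 13.3% in KO_LPS minus WT_PBS were likewise lower without overlap. Its KO_LPS minus WT_PBS difference was -1.25 ± 0.24 (SE), with an unadjusted p of 0.000606 and an adjusted p of 0.215 (limma), the lowest of all these lists. Mxi1, an antagonist of Myc, averaged 24.8, 30.3 and 34.1 FPKM in KO_LPS, WT_LPS and WT_PBS, and Epas1, which encodes a HIF alpha subunit, 3.08, 2.63 and 4.43 FPKM.

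Of 16 tested hypoxia-responsive genes outside glycolysis 0 passed in either direction. At an unadjusted p under 0.05 (limma) the list had 2 genes in KO_LPS minus WT_LPS, 1 in KO_LPS minus WT_PBS and 0 in WT_LPS minus WT_PBS. All-gene shares at that p were 5.69%, 6.69% and 1.18% in the same order. For KO_LPS minus WT_LPS 13 of the 16 differences were below 0 and 3 above, where 42% of all genes were above 0, and their median was -0.20 against -0.06 over all genes. Mif, a cytokine, had 1569, 1497 and 1173 FPKM in KO_LPS, 1199.5, 951 and 1123 FPKM in WT_LPS, and 999 and 982 FPKM in WT_PBS, with an adjusted p of 0.631 for its KO_LPS minus WT_PBS difference of 0.50 (limma). Higd1a averaged 16.2 ± 0.676 FPKM in KO_LPS, 12.8 ± 1.28 FPKM in WT_LPS and 12.6 ± 0.325 FPKM in WT_PBS. Gys1, glycogen synthase, had 1.26, 0.87 and 6.84 FPKM in KO_LPS, 5.31, 7.49 and 5.51 FPKM in WT_LPS, and 3.98 and 9.98 FPKM in WT_PBS, and Car9 averaged 0.647, 1.16 and 1.06 FPKM in KO_LPS, WT_LPS and WT_PBS. None of these differences passed. Mif was highest in KO_LPS 1 and KO_LPS 2, the libraries where Gys1 was lowest, while KO_LPS 3 lay below WT_LPS 1 for Mif.

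The 8 genes most like the enzymes were found by Pearson's r with the enzymes' mean centred profile over the 8 libraries, among 8024 named protein-coding genes averaging 5 FPKM or more. They were Map2k3, a kinase of the p38 pathway, at r = 0.983, Rbm38 at 0.957, Tmub1 at 0.954, Endog at 0.952, Acaa1a at 0.952, Abhd8 at 0.949, Pnkd at 0.947 and Mtch2 at 0.942. Map2k3 had 26.0, 25.9 and 34.2 FPKM in KO_LPS, 32.1, 35.9 and 32.5 FPKM in WT_LPS, and 24.0 and 36.2 FPKM in WT_PBS. It was lowest in WT_PBS 1, KO_LPS 1 and KO_LPS 2, where the enzymes' mean was low too, a likeness for which it was picked. The mean profile gives most weight to Hk2 and Pfkl, whose deviations are largest, and these r values describe 8 libraries that share their normalization.

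Several of the enzymes have near-identical sequence in transcripts of other annotated genes, called copies here. The positions of these copies in the genome were not checked. For 6 of 10 genes the GENCODE M21 transcripts of at least 1 other gene matched at 95% identity or more over at least 300 bases: 1 each for Tpi1, Pgam1 and Pkm, 4 for Pgk1, and 3 each for Eno1 and Ldha. The authors' handling of reads that fit several places is not given in the sources used here, so the values of these 6 genes are uncertain to that extent. Only Eno1b, a copy of Eno1, had a row of its own, with 0.11 FPKM at most. No copy met these limits for Hk2, Pfkl, Pfkp or Aldoa.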

How the data were processed

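RNA was measured in 8 bone marrow libraries, made from total RNA with a SMARTER kit for mRNA (source: the labels' protocols). The deposited table holds FPKM values per gene and library, which the authors gave with 2 decimals, the unit being named per the file headers. GRCm38 and mm10 come from the submitters' processing notes, while the sources used here name no aligner or counter. Of 18020 rows, 16798 matched a symbol and 1119 were unnamed loci. Groups come from the genotype and treatment labels, and replicate numbers follow accession order.

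Tests covered the 12061 genes that averaged 0.5 FPKM or more over the libraries, among them 592 unnamed loci. Group means of log2(FPKM + 1) were fitted over all 8 libraries with limma 3.58.1 (R 4.3.3), with an intensity trend, two-sided, adjusted by Benjamini-Hochberg within each comparison at 0.05. On this scale fold changes of low genes are understated. The fit was tested on simulated data for WT_LPS minus WT_PBS, with changes placed in genes that were not low. It recovered 34.9% of 2-fold and 85.55% of 4-fold changes, so most simulated 2-fold changes were missed. False calls averaged 4.4 and 10 per run in turn. The simulated noise was independent between genes, whereas these libraries share a large first component, so the recovered shares may differ for the real data. Shares of a step are of summed FPKM. Transcript lengths and copies come from GENCODE M21, promoters from RefSeq GRCm38.p6. The level of the targeted gene and some other values are not reported here. Depth in reads is unknown, so no counting interval is given. Every member is named, with up to 4 genes of each list by smallest p and the 8 most alike genes. The members and lists were chosen with earlier results of these data known. Results were recomputed under 18 other settings of the filter, pseudocount, scaling, weights and libraries, and under 3 more chosen after seeing the data: weights estimated gene by gene, removal of trends with length and GC content, and omission of the 3 libraries highest on the first component. That omission leaves only KO_LPS 3 in its group.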

Additional observations from a re-analysis of the deposited data

How the results depend on the processing

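No paired analysis was possible because replicate numbers follow accession order and pair no libraries. Every enzyme stayed short of the threshold under every alternative except the library weights. The median over the 10 enzymes was set against the spread, between libraries of a group, of their median deviation (0.12 on the log2 scale). It moved by more for KO_LPS minus WT_PBS under median-ratio scaling (0.228, against 0.078), for WT_LPS minus WT_PBS without WT_PBS 2 (0.277, against 0.12) and for KO_LPS minus WT_LPS without the 3 libraries highest on the first component (0.065, against -0.10). The median changed sign there and, for KO_LPS minus WT_PBS, under quantile normalization (-0.028) and without WT_PBS 1 (-0.030). With 1 library left out it ranged over 0.0081 to 0.277 for WT_LPS minus WT_PBS, -0.17 to -0.027 for KO_LPS minus WT_LPS and -0.030 to 0.19 for KO_LPS minus WT_PBS. Depth in reads is unknown and groups hold 2 or 3 libraries. Intervals were widest for Hk2 and Pfkl, whose standard deviations between libraries of a group were the largest of the 10 enzymes, at 0.989 and 0.716. The causes of the shifts below were not tested.

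Library weights changed the calls. The default method, run first, stopped before convergence and put a weight of 58.0 on WT_LPS 3. Of 12061 genes and 10 enzymes, it called 8866 genes and 6 enzymes for KO_LPS minus WT_LPS (Hk2, Pfkl, Tpi1, Pgk1, Pkm and Ldha). For KO_LPS minus WT_PBS it called 2996 genes and 1 enzyme, Pfkl. The gene-by-gene method was added after these counts were seen, gave WT_LPS 3 a weight of 10.1, and called 2727 genes and 1 enzyme (Pfkl) for KO_LPS minus WT_LPS and 73 genes and 0 enzymes for KO_LPS minus WT_PBS. Both methods called 0 genes for WT_LPS minus WT_PBS.

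For KO_LPS minus WT_LPS and KO_LPS minus WT_PBS in turn, the counts of 10 and 6 genes became 5 and 0 with no filter, 2 and 3 with a mean of at least 5 FPKM, and 0 and 0 with only the 2 groups compared. The libraries numbered 40 and 100 in the labels are WT_LPS 2 and WT_LPS 3, and omitting them leaves only WT_LPS 1 in its group. Omitting the 3 libraries highest on the first component leaves only KO_LPS 3 in its group. No counts are therefore given for these fits. For KO_LPS minus WT_PBS the count was 3 under median-ratio scaling and 10 under quantile normalization. With 1 library left out the counts ranged over 0 to 2 for WT_LPS minus WT_PBS, 0 to 161 for KO_LPS minus WT_LPS and 0 to 125 for KO_LPS minus WT_PBS, the highest of the last pair without KO_LPS 3, and 0 enzymes passed.

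Of 630 recomputed enzyme differences 63 changed sign, all short of the threshold. Under median-ratio scaling these were, for WT_LPS minus WT_PBS, Pfkp 0.045 and for KO_LPS minus WT_LPS, Eno1 0.052 and for KO_LPS minus WT_PBS, Pfkp 0.00063. Under quantile normalization they were, for WT_LPS minus WT_PBS, Pfkp 0.051 and for KO_LPS minus WT_LPS, Pgk1 -0.037, Pkm -0.0033, Ldha -0.088 and for KO_LPS minus WT_PBS, Pfkp 0.0031, Aldoa -0.016, Tpi1 -0.039, Pgam1 -0.11, Eno1 -0.053, Ldha -0.017. Under the default weights they were, for WT_LPS minus WT_PBS, Pgam1 -0.011 and for KO_LPS minus WT_PBS, Tpi1 -0.15, Pgam1 -0.056, and under gene-by-gene weights, for KO_LPS minus WT_PBS, Tpi1 -0.062, Pgam1 -0.025. With length and GC trends removed they were, for WT_LPS minus WT_PBS, Pfkl -0.015, Pfkp 0.064 and for KO_LPS minus WT_LPS, Eno1 0.042 and for KO_LPS minus WT_PBS, Tpi1 -0.030, Pgam1 -0.040. Without the libraries numbered 40 and 100, which leaves only WT_LPS 1 in its group, they were, for WT_LPS minus WT_PBS, Pfkl -0.41 and for KO_LPS minus WT_LPS, Hk2 0.29, Pfkp 0.0052, Pgk1 -0.15, Pkm -0.34, Ldha -0.049. Without the 3 libraries highest on the first component they were, for WT_LPS minus WT_PBS, Hk2 0.020, Pfkp 0.037 and for KO_LPS minus WT_LPS, Hk2 0.11, Pfkp 0.042, Aldoa 0.036, Tpi1 0.16, Pgam1 0.096, Eno1 0.017 and for KO_LPS minus WT_PBS, Hk2 0.13, Pfkl 0.20, Pfkp 0.079. With 1 library left out, for WT_LPS minus WT_PBS the differences that changed sign ranged over -1.27 to 0.48 for Hk2, -0.023 to 0.20 for Ldha, -0.52 to 0.63 for Pfkl, -0.32 to 0.27 for Pfkp, -0.044 to 0.25 for Pgam1. For KO_LPS minus WT_LPS the differences that changed sign ranged over -0.071 to 0.018 for Eno1, -0.013 to 0.074 for Ldha, -0.23 to 0.041 for Pfkp, -0.037 to 0.15 for Pgk1, -0.069 to 0.27 for Pkm. For KO_LPS minus WT_PBS the differences that changed sign ranged over -0.023 to 0.30 for Aldoa, -0.44 to 0.16 for Pfkp, -0.13 to 0.17 for Pgam1, -0.081 to 0.15 for Tpi1.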
